A study of Mus musculus with 8 samples.

Results

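The Hedgehog genes described here are the ligand Shh, the receptor Ptch1, the ligand-binding membrane proteins Hhip, Boc, Cdon and Gas1, and the transcription factors Gli1, Gli2 and Gli3. They were found by their symbols in the deposited count tables, which held all 9 of them among 26608 listed genes. Tags were counted in 8 libraries of neural tube from FVB mouse embryos at day 8.5 of gestation, cut by laser from cryosections on either side of the first site of neural tube closure. The 4 groups held 2 libraries each and are named by dam and by region: diabetic closed (15 and 16), diabetic open (13 and 14), normal closed (11 and 12) and normal open (09 and 10). All embryos were of the FVB strain, closed tissue lay behind the closure site and open tissue in front of it, and no source used here says how the diabetes of the dams arose. The labels do not say whether libraries of a group came from separate embryos or litters, so p-values measure the spread between these libraries only, which may be partly technical.

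In the early embryo, Shh is made by the notochord, the rod of mesoderm under the neural tube, and then by the floor plate, the ventral midline of the neural tube itself. Shh binds Ptch1 and so frees the membrane protein Smo, which turns the Gli factors from repressors into activators. Gli2 is the main activator and Gli3 the main repressor in the neural tube, while Gli1, Ptch1 and Hhip are themselves switched on by the pathway. Boc, Cdon and Gas1 help cells to receive Shh and are turned down where the signal is strong.

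Each gene was counted through a short tag next to a CATG site near the 3′ end of its transcript, so a level does not scale with transcript length. Because the counts rest on these tags, the tag predicted at the last CATG of the longest coding transcript in GENCODE M21 (assembly GRCm38, names and sequences only) is shown for every gene, with the CATG in capitals. The counts were made on mm9, and which tags were accepted for a gene is not given in the sources used here.
Shh, chromosome 5: CATGttcttggaaaccaagactgttaa
Ptch1, chromosome 13: CATGaataaagataatataacttgttg
Hhip, chromosome 8: CATGatcaaatgtattaaactttatct
Boc, chromosome 16: CATGccgcagactggagccacctggaa
Cdon, chromosome 9: CATGattttatattaaaagagaatgct
Gas1, chromosome 13: CATGaggaatccactcctgcagcccat
Gli1, chromosome 10: CATGaggtgcccagggatgggaggttt
Gli2, chromosome 1: CATGctcaacttgtaaataagtctttt
Gli3, chromosome 13: CATGaactctgccttggctttcagaac

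All 9 predicted tags lay in the 3′ untranslated region, and each was found in the transcripts of 1 gene only, with no match on the opposite strand of any transcript. The tags of Ptch1, Hhip and Cdon began 32, 35 and 40 bases from the transcript end, and each held 22.2% G and C. The median distance was 156 bases over 21659 coding genes, and 9.5% of those genes had a distance as short as that of Ptch1 or shorter. These 3 tags did not give alike counts, since Cdon was among the more abundant genes and Ptch1 the least abundant. Whether tag position bears on the counts was not tested.

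Levels are given as CPM, the count of a gene for every 1000000 counts of its library. Library totals ran from 5041586 to 16655583 counts. In the mean over the 8 libraries Gli2 (322 CPM) and Gli1 (314 CPM) led, followed by Cdon (120 CPM), Gli3 (72.9 CPM) and Gas1 (41.3 CPM). The others were lower, with Hhip at 13.1 CPM, Boc at 4.81 CPM, Shh at 4.33 CPM and Ptch1 at 2.68 CPM. Over the libraries Gli1 (197 to 437 CPM) and Gli2 (209 to 400 CPM) overlapped. Every further gene overlapped with the next in this order, except that Gli1 lay above Cdon (77.2 to 165 CPM) throughout. Gli3 (52.8 to 99.0 CPM) lay below Gli1 and Gli2 in every library. Shh, Ptch1 and Hhip had no count in at least 1 library, which was also true of 33.9% of the 11779 genes kept for testing.

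**Figure D1:**
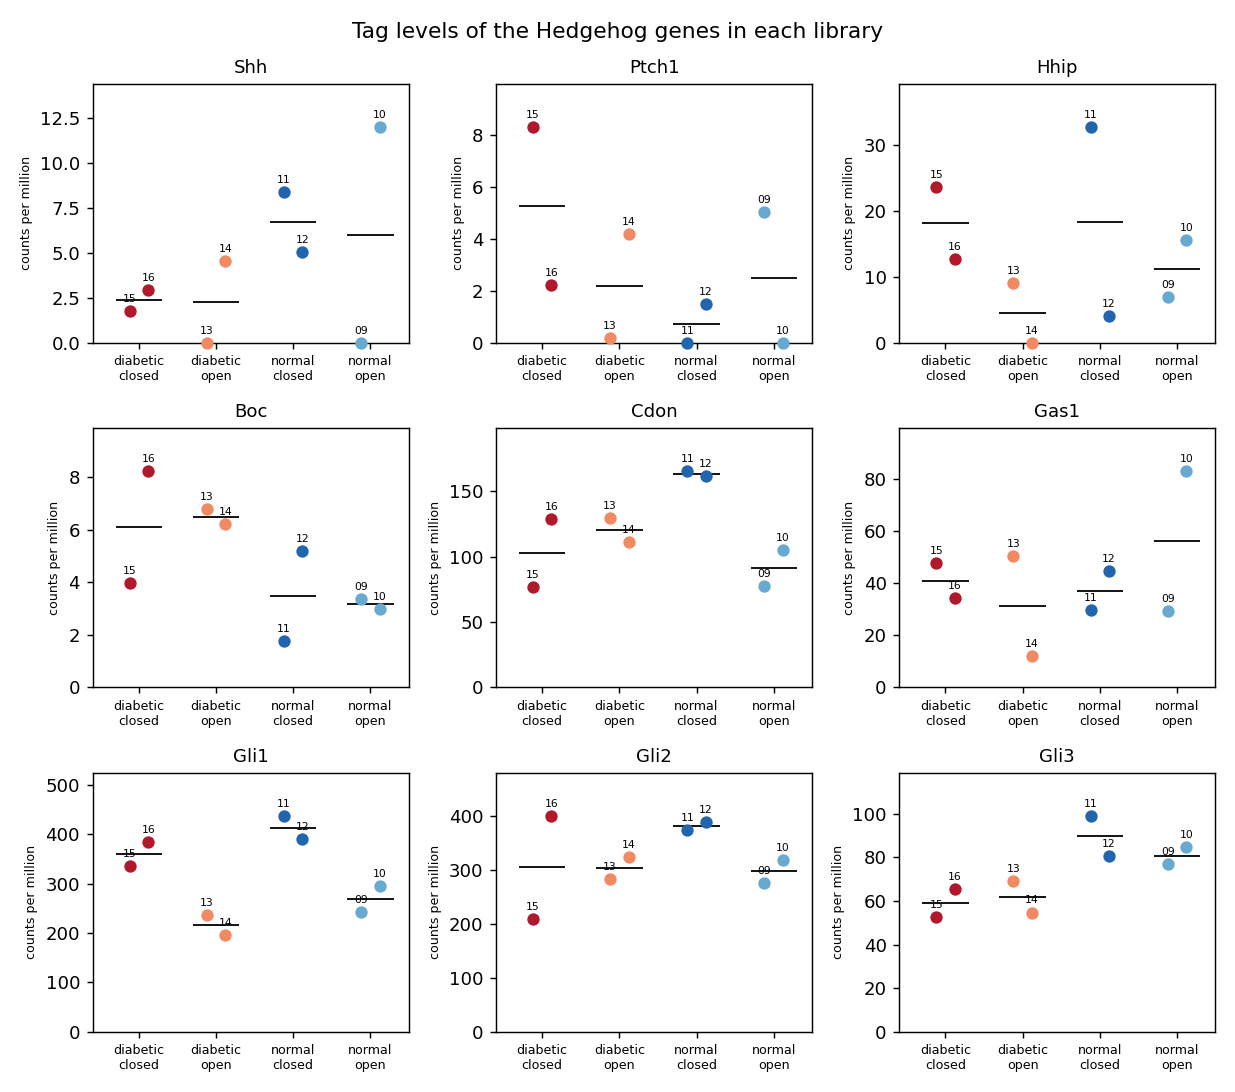
CPM of the library total (vertical axis, linear from 0, a separate scale for each gene) for the 9 Hedgehog genes. Points are single libraries with their number, bars are means of 2 libraries, and the groups run from diabetic closed to normal open. Gli1 is the gene whose 4 closed libraries (335 to 437 CPM) all lie above its 4 open ones (197 to 294 CPM), and Gli3 the gene whose 4 diabetic libraries (52.8 to 69.0 CPM) all lie below its 4 normal ones (77.0 to 99.0 CPM).

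Some libraries stood apart in their cell type markers. Sox2, a factor of neural progenitors, was at 30.9 CPM in diabetic open library 13 and at 287 to 550 CPM in the other 7. Library 13 also had the highest level of Pdgfra, a receptor of mesenchyme (475 CPM, against 29.9 to 158 CPM elsewhere), and of Gata4, a heart and endoderm factor (87.7 CPM, against at most 4.36 CPM). Gli1 (235 CPM), Gli2 (284 CPM), Gli3 (69.0 CPM) and Cdon (130 CPM) lay within the range of the other libraries there. So did Hhip (9.13 CPM), Boc (6.78 CPM) and Gas1 (50.3 CPM). Shh had no count in library 13, as in library 09, and Ptch1 had 3 counts (0.180 CPM). Fewer cells of a type and less RNA per cell cannot be told apart in such tissue. Xist, which marks female cells, reached 297 CPM in library 12 (normal closed) and 301 CPM in library 10 (normal open). It was at most 4.27 CPM in the rest, so that all 4 libraries of diabetic dams were low in it. Ddx3y, a gene of the Y chromosome, was at 0.444 CPM in library 12 and 0.882 CPM in library 10, against 188 to 274 CPM in the rest. The 2 libraries of each normal group thus differed in sex and did not come from the same embryo.

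The first comparison asked how the Hedgehog genes differ between tissue that has closed and tissue still open, with both dams in an additive model. All closed tissue lay behind the closure site and all open tissue in front of it. Closure and position along the body axis therefore cannot be told apart in any region comparison here. Pathway activity itself was not measured. Gli1, a gene that the pathway switches on, stood higher in every closed library than in any open one, though not past the threshold. Its level was 335 and 384 CPM in diabetic closed libraries and 437 and 390 CPM in normal closed libraries, against 235 and 197 CPM in diabetic open and 242 and 294 CPM in normal open libraries. The 4 closed libraries did not overlap with the 4 open ones. Closed tissue averaged 386 ± 41.9 CPM and open tissue 242 ± 40.1 CPM (mean ± SD of 4 libraries per region). The fitted ratio was 1.65-fold, or 0.72 on the log2 scale (SE 0.17).

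Gli1 had an unadjusted p of 0.00122 in edgeR's quasi-likelihood test, the fifth smallest of 11779 genes, and an adjusted p of 1.00 over all genes. It did not pass the threshold of 0.05. No other gene passed either (0%), while 3.32% of all genes, and 1 of the 9 Hedgehog genes, had an unadjusted p below 0.05. DESeq2 gave Gli1 an adjusted p of 0.0912 and called 9 genes, and limma-voom gave 0.92 and called 0. Closed libraries all above open ones were seen in 1.68% of genes and in 1 of the 9.

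Gli1 stood higher in closed tissue with each kind of dam. With diabetic dams, closed tissue averaged 359 ± 34.7 CPM and open tissue 216 ± 27.5 CPM (SD of 2 libraries), which is 0.77 on the log2 scale (SE 0.25). With normal dams, closed tissue averaged 413 ± 33.7 CPM and open tissue 268 ± 36.7 CPM, which is 0.67 on the log2 scale (SE 0.25). The difference between these fold changes was 0.10 (SE 0.36, adjusted p = 1.00 by edgeR). Gli1 was the 1 member with closed above open libraries within each dam, a pattern of 3.16% of all genes. Unadjusted p was 0.0124 within diabetic dams, where 2.78% of genes were below 0.05, and 0.024 within normal dams, where 3.4% were.

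The other genes that Hedgehog signalling switches on were counted less often and varied more. Hhip, a membrane protein that traps the ligand, was at 23.6 and 12.7 CPM in diabetic closed and 32.8 and 4.00 CPM in normal closed libraries. Open tissue had 9.13 and 0 CPM in diabetic and 7.01 and 15.5 CPM in normal libraries. Closed and open libraries overlapped, with library 12 (27 counts) the lowest of the closed ones and library 10 (88 counts) the highest of the open ones. The 0 in diabetic open library 14 allows up to 0.358 CPM by counting error alone, and Hhip had 152 counts in library 13 of that group. The log2 fold change was 1.39 (SE 1.14), and it was 0.87 without library 14 and 2.21 without library 13.

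Ptch1, the receptor, had few tags in every library. It had 42 and 16 counts in diabetic closed and 0 and 10 in normal closed libraries, against 3 and 35 in diabetic open and 51 and 0 in normal open libraries. That is at most 8.33 CPM, in library 15 (exact 95% interval 6.004 to 11.3 CPM). The zeros in normal closed library 11 and normal open library 10 allow up to 0.534 and 0.529 CPM. High and low libraries were found in both regions, and the log2 fold change of -0.19 had a standard error of 2.08. Such intervals cover counting error only, while the spread between libraries of a group was wider: 5.04 and 0 CPM in normal open tissue.

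Gli2 and Gli3, the main activator and the main repressor, overlapped between regions. Gli2 was at 209 and 400 CPM in diabetic closed, 374 and 389 CPM in normal closed, 284 and 324 CPM in diabetic open and 275 and 319 CPM in normal open libraries. Library 15 was the lowest of all 8, and the other 3 closed libraries lay above all open ones. The log2 fold change of Gli2 was 0.23 (SE 0.22). Gli3 averaged 74.5 ± 19.9 CPM over the closed libraries and 71.3 ± 12.8 CPM over the open ones, which is 0.09 on the log2 scale (SE 0.23).

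Ratios of tag counts within a library do not depend on how libraries are scaled. There were 6.35 and 5.87 Gli1 tags per Gli3 tag in diabetic closed and 4.42 and 4.83 in normal closed libraries, against 3.41 and 3.60 in diabetic open and 3.15 and 3.48 in normal open libraries. Every closed library lay above every open one, with averages of 5.36 ± 0.90 for closed and 3.41 ± 0.19 for open libraries. The ratio of Gli1 to Gli2 was 0.959 to 1.60 in closed and 0.606 to 0.922 in open libraries, and these did not overlap either. The ratio of Gli2 to Gli3 overlapped, at 3.78 to 6.12 in closed and 3.57 to 5.93 in open libraries. The ratio of Gli1 to Smo, the membrane transducer, overlapped as well, at 1.45 to 2.08 in closed and 1.04 to 1.59 in open libraries. All 4 ratios were chosen after the levels were seen and carry no test.

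**Figure D2:**
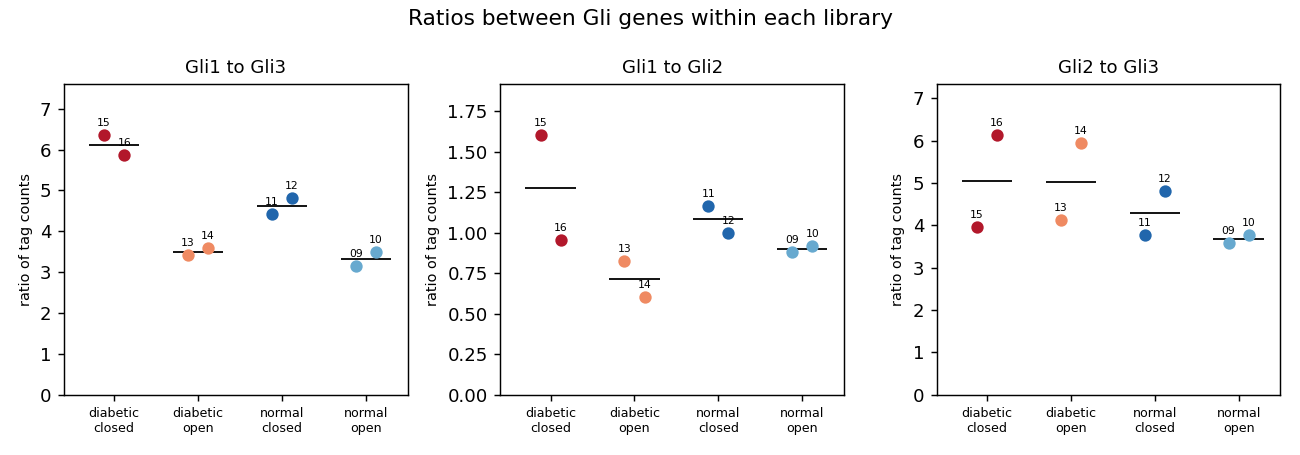
Ratios of tag counts between Gli genes (vertical axis, linear from 0) in each library, with points for libraries and bars for means of 2. The ratio of Gli1 to Gli3 runs from 4.42 to 6.35 in closed and from 3.15 to 3.60 in open libraries, whereas the ratio of Gli2 to Gli3 overlaps between regions.

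Among the proteins that help cells to receive Shh, Cdon stood higher in closed tissue with normal dams, though not past the threshold. Cdon, an immunoglobulin-family coreceptor, was at 165 and 162 CPM in normal closed and 77.8 and 104.8 CPM in normal open libraries, which did not overlap (log2 fold change 0.90, SE 0.34). In diabetic dams it was at 77.2 and 129 CPM in closed and 130 and 111 CPM in open tissue, which overlapped (log2 fold change -0.19, SE 0.34). The difference between the fold changes was -1.08 (SE 0.48), with an unadjusted p of 0.0464 and an adjusted p of 1.00 by edgeR. An unadjusted p below 0.05 was seen in 3.74% of genes for that difference, and in Cdon alone of the 9 members. Closed libraries lay above open ones in 14.9% of genes with normal dams (3 of the 9 members: Gli1, Gli2 and Cdon) and in 18.5% with diabetic dams (2 of the 9: Gli1 and Hhip).

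Boc, a close relative of Cdon, was at 3.97 and 8.23 CPM in diabetic closed and 1.78 and 5.18 CPM in normal closed libraries. Open libraries had 6.78 and 6.21 CPM with diabetic and 3.36 and 2.999 CPM with normal dams. The regions overlapped, with a log2 fold change of 0.06 (SE 1.00). Gas1, a membrane-anchored coreceptor, was at 47.8 and 34.2 CPM in diabetic closed and 29.6 and 44.6 CPM in normal closed libraries, against 50.3 and 12.1 CPM in diabetic open and 29.3 and 82.9 CPM in normal open libraries. Its lowest and its highest library were both of open tissue, and the log2 fold change was -0.05 (SE 0.50).

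Shh itself had few tags. It was at 1.79 and 2.93 CPM in diabetic closed and 8.37 and 5.03 CPM in normal closed libraries, against 0 and 4.54 CPM in diabetic open and 0 and 11.997 CPM in normal open libraries. Each closed library had 9 to 47 counts, while each open group held 1 library with none and 1 with 38 or 68. The zeros in libraries 13 and 09 allow up to 0.180 and 0.296 CPM by counting error alone, below the lowest level seen elsewhere. Closed tissue averaged 4.53 ± 2.89 CPM and open tissue 4.13 ± 5.66 CPM, a fitted difference of 0.18 on the log2 scale (SE 1.72). By limma-voom that difference was 3.14 (adjusted p = 0.973).

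Of the 7 notochord markers, T and Chrd were also at or near 0 in the libraries without Shh tags. In library 09, Nog, Foxa2 and Foxj1 were still counted. T, the Brachyury factor of the notochord and caudal progenitors, had 5 counts (0.300 CPM) in library 13 and 3 counts (0.296 CPM) in library 09, against 6.33 to 22.8 CPM in the other 6. Chrd, a BMP antagonist of the notochord, had 0 counts in both and 1.63 to 18.1 CPM in the others. Foxa2, a factor of notochord, floor plate and endoderm, was lowest in library 13 at 7.69 CPM. Library 09 (12.1 CPM) was close to normal closed library 11 (12.1 CPM), the lowest of the others, which reached 23.9 CPM. Nog, another BMP antagonist, was at 4.26 CPM in library 13 and 14.02 CPM in library 09, against 3.22 to 17.3 CPM in the other 6. Foxj1 had no count in library 13 and was at 12.6 CPM in library 09. That was above library 15 (6.15 CPM) but the lowest of the normal libraries. Noto, a notochord factor, had no count in any library. Chrd, Nog and Noto, like Dhh, Sufu, Nkx2-5 and Tnnt2 further on, were picked out after their values were seen, and how far the tissue cut from each embryo included notochord was not tested. Gli1 was at 235 CPM in library 13 and 242 CPM in library 09, between its levels in the other open libraries, 14 and 10.

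**Figure D3:**
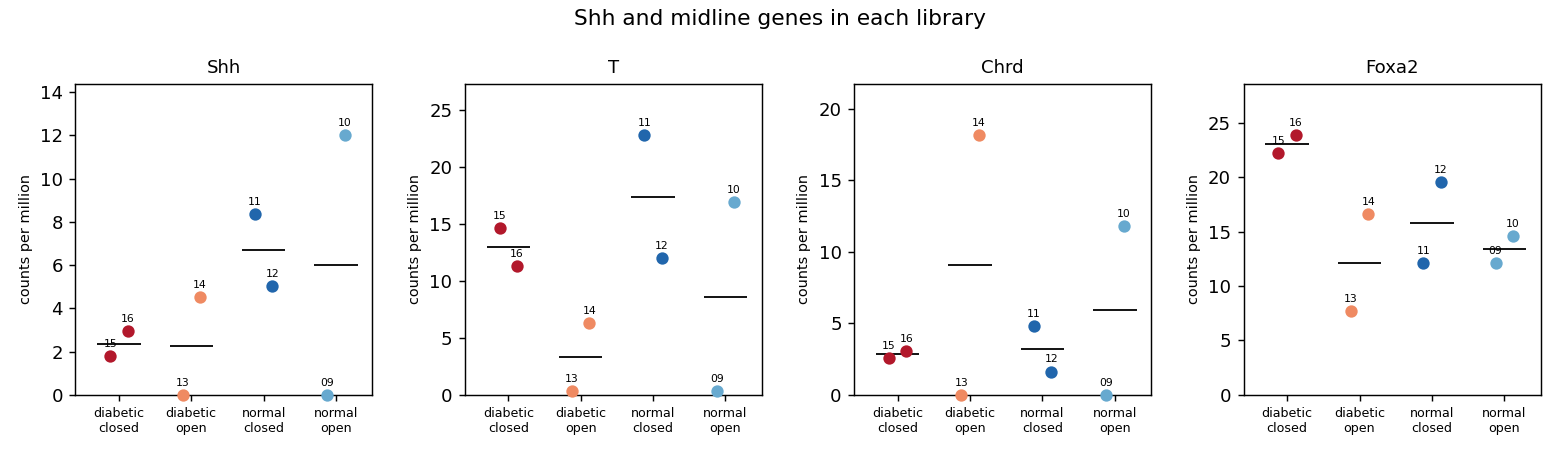
CPM (vertical axis, linear from 0) of Shh and of the midline genes T, Chrd and Foxa2 in each library, with points for libraries and bars for means of 2. Libraries 13 and 09 have no Shh or Chrd count and 0.300 and 0.296 CPM of T, while Foxa2 is present in them at 7.69 and 12.1 CPM.

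Over the 9 genes together, 7 had a higher fitted level in closed tissue and 2 a lower one, with a median log2 fold change of 0.18, against 0.07 over all genes, of which 55.5% were positive. The members' standard errors ran from 0.17 for Gli1 to 2.08 for Ptch1. For Shh, Ptch1, Boc and Gas1 the sign turned when single libraries were left out.

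The second comparison asked how the same genes differ between diabetic and normal dams, with both regions in the additive model. Gli3 stood lower with diabetic dams in both regions, though not past the threshold. It was at 52.8 and 65.4 CPM in diabetic closed and 69.0 and 54.7 CPM in diabetic open libraries, against 99.0 and 80.7 CPM in normal closed and 77.0 and 84.5 CPM in normal open libraries. The 4 diabetic libraries all lay below the 4 normal ones. Diabetic libraries averaged 60.5 ± 7.96 CPM and normal ones 85.3 ± 9.63 CPM (mean ± SD of 4 libraries per dam, as for the averages that follow). The fitted difference was -0.51 on the log2 scale (SE 0.23).

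The unadjusted p of Gli3 was 0.0513 and its adjusted p 0.999 by edgeR. None of the 9 members, and 0% of all genes, passed the threshold, and 0 of the 9 had an unadjusted p below 0.05, as 4.55% of all genes did. DESeq2 called 37 genes and limma-voom 0, with no member among them. Diabetic libraries all below normal ones were seen in 1.15% of genes and 1 of the 9 members. The opposite order was seen in 2.48% of genes and 0 of the 9.

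Gli1 also lay lower with diabetic dams once the regions were set apart, though not past the threshold. The closed libraries of diabetic dams (335 and 384 CPM) lay below those of normal dams (437 and 390 CPM), and the open ones (235 and 197 CPM) below theirs (242 and 294 CPM). The gaps between nearest libraries were small in both regions, and the log2 fold change was -0.27 (SE 0.17, adjusted p = 0.999). Gli1 and Gli3 were the 2 members with diabetic below normal libraries within each region, which was seen in 2.49% of all genes. No member had the opposite order in both regions.

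For the other members the diabetic and normal libraries overlapped. Gli2 averaged 304 ± 79.8 CPM over diabetic libraries and 339 ± 52.3 CPM over normal ones. Cdon averaged 112 ± 24.5 CPM over diabetic libraries and 128 ± 43.3 CPM over normal ones. In closed tissue both diabetic libraries of Cdon lay below both normal ones, and in open tissue both lay above. How many of all genes show such opposite orders was not counted. Gas1 averaged 36.1 ± 17.5 CPM over diabetic and 46.6 ± 25.2 CPM over normal libraries.

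Boc had the higher mean with diabetic dams, at 6.30 ± 1.77 CPM against 3.33 ± 1.41 CPM with normal dams, a log2 fold change of 0.90 (SE 1.01). Its 10 to 113 counts per library overlapped through diabetic closed library 15 and normal closed library 12. Shh averaged 2.31 ± 1.91 CPM over diabetic and 6.35 ± 5.10 CPM over normal libraries (-1.44 on the log2 scale, SE 1.75), and its only counts in open tissue came from 1 library of each dam. Ptch1 averaged 3.73 ± 3.47 CPM over diabetic and 1.63 ± 2.38 CPM over normal libraries (1.24 on the log2 scale, SE 2.14), a difference of 0.48 without library 11 and 3.73 without library 09. Hhip averaged 11.4 ± 9.76 CPM over diabetic and 14.8 ± 12.9 CPM over normal libraries. The median log2 fold change of the 9 was -0.27, against 0.04 over all genes, with 7 members negative.

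**Figure D4:**
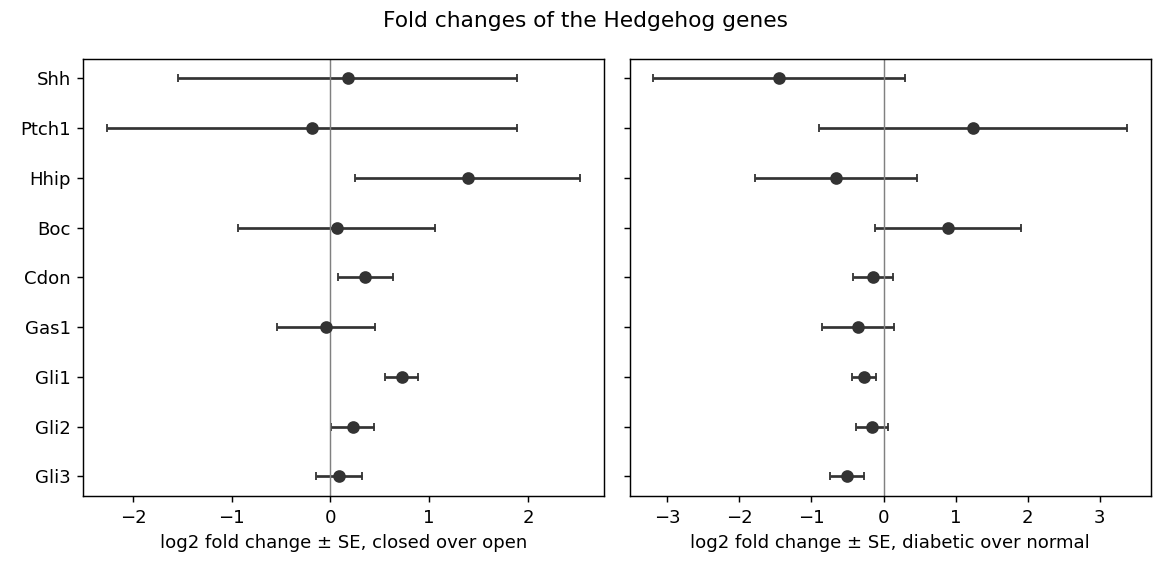
Log2 fold changes from edgeR (horizontal axis) with bars of 1 standard error for the 9 genes, closed over open on the left and diabetic over normal on the right, each from an additive fit on 8 libraries. Gli1 lies at 0.72 (SE 0.17) on the left and Gli3 at -0.51 (SE 0.23) on the right. The bars of Shh, Ptch1, Boc and Gas1 cross 0 in both panels.

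Within a single region or dam no Hedgehog gene passed either. Over all genes edgeR called 0% in closed against open tissue of diabetic dams, of normal dams, in diabetic against normal dams in open tissue and in closed tissue, and for the difference of differences. An unadjusted p below 0.05 was seen in 327, 400, 851, 138 and 440 genes. DESeq2 called 46, 27, 195, 2 and 17 genes in these 5 contrasts, and limma-voom 1, 0, 1, 0 and 1. No member was called by any of the 3 tools in any contrast. In open tissue the log2 fold changes by dam were -0.40 (SE 0.35) for Gli3 and -0.32 (SE 0.25) for Gli1. In closed tissue they were -0.62 (SE 0.35) and -0.22 (SE 0.25), and -0.69 (SE 0.34) for Cdon.

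Other genes of the pathway gave context. Smo, the transducer that Ptch1 holds in check, was at 191 to 268 CPM over closed and 159 to 227 CPM over open libraries (log2 fold change 0.27, SE 0.20). Lrp2, an endocytic receptor that takes up Shh, had a log2 fold change of -0.68 (SE 0.40) between regions and 0.03 (SE 0.40) between dams. Of the 4 further receptor and membrane genes, 3 were kept and none had an unadjusted p below 0.05.

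Among 6 further genes of ligands and their release, 4 were kept. Ihh, a sister ligand made by endoderm, was at 2.98 to 10.4 CPM in the 4 diabetic libraries and at 0 to 0.890 CPM in the 4 normal ones. These did not overlap, and diabetic libraries all above normal ones were seen in 2.48% of all genes. The unadjusted p of 0.0317 was the one below 0.05 in that list, with an adjusted p of 0.999 by edgeR. Only the diabetic libraries carried Ihh past the filter, so its order and its p are no support for a difference. Ihh was highest in library 13. Dhh, the third Hedgehog ligand, had no count in any library.

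Of 16 genes of cytoplasmic transduction, 14 were kept and none had an unadjusted p below 0.05. The kinase Csnk1a1 had log2 fold changes of 0.11 (SE 0.17) by region and -0.33 (SE 0.17) by dam, and Prkar1a, a regulatory subunit of protein kinase A, 0.05 (SE 0.20) and 0.27 (SE 0.20). The median over the list was 0.04 by region and -0.19 by dam. Sufu, which holds the Gli factors in the cytoplasm, had counts in the 2 diabetic closed libraries only (5 and 12) and was not kept.

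Ventral neural tube genes, which depend on high Hedgehog signalling, were mostly not counted at this stage. Of 8 such genes, 3 had no count in any library and 4 were kept, none with an unadjusted p below 0.05. Foxa2 was at 12.1 to 23.9 CPM over closed and 7.69 to 16.6 CPM over open libraries (log2 fold change 0.63, SE 0.51), and Nkx6-2 had log2 fold changes of -0.09 (SE 1.64) by region and -1.34 (SE 1.59) by dam. Of 8 dorsal and intermediate genes, which Hedgehog signalling restrains, 7 were kept. Msx1, a dorsal midline factor, was the one with an unadjusted p below 0.05, at 352 to 1015 CPM over closed and 67.7 to 329 CPM over open libraries (log2 fold change 1.80, SE 0.46, adjusted p = 1.00 by edgeR). The ventral list had a median log2 fold change of -0.02 by region and the dorsal list -0.26.

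Of 6 other Hedgehog-responsive genes found, 5 were kept. Foxc2, a mesoderm factor, and Ccnd1, the cyclin D1 gene, had unadjusted p of 0.0377 and 0.0435 by dam, with log2 fold changes of 1.35 (SE 0.57) and 0.55 (SE 0.24). Foxc2 was at 55.9 to 180 CPM over diabetic and 7.80 to 76.0 CPM over normal libraries, and Ccnd1 at 118 to 205 CPM over diabetic and 98.5 to 133 CPM over normal libraries, each with overlap. None of the genes on these lists was called by edgeR. By DESeq2, Msx1 had an adjusted p of 0.0154 by region.

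Markers of other cell types varied beside these values, and their part in them was not tested. The summed level of 7 neural progenitor markers ran from 741 to 1098 CPM over closed and 178 to 1119 CPM over open libraries, lowest in library 13. For 7 notochord markers, Shh among them, it ran from 64.7 to 87.7 CPM over closed and 12.2 to 106 CPM over open libraries, and from 12.2 to 67.7 CPM over diabetic and 39.1 to 106 CPM over normal libraries. Foxj1, the most abundant of these and a factor of ciliated cells, was at 6.15 and 17.6 CPM in diabetic closed libraries and had no count in either diabetic open library, against 12.6 to 42.6 CPM in the 4 normal ones (log2 fold change by dam -4.36, SE 1.64, adjusted p = 0.999 by edgeR and 0.00699 by DESeq2). For 8 gut endoderm markers the sum was 61.3 to 103 CPM over closed and 37.4 to 87.9 CPM over open libraries.

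Sums of mesodermal markers were higher with diabetic dams in part of the libraries. For 8 somite and sclerotome markers, led by Meox1, they were 121 to 773 CPM over diabetic and 81.8 to 260 CPM over normal libraries. The 4 mesenchyme markers, led by Pdgfra, summed to 199 to 1003 CPM over diabetic and 53.2 to 224 CPM over normal libraries. The 6 endothelial markers, led by Egfl7, summed to 53.0 to 291 CPM over diabetic and 26.1 to 58.0 CPM over normal libraries. The 5 primitive blood markers, led by Hba-x, summed to 4.36 to 1009 CPM over diabetic and 0.296 to 63.3 CPM over normal libraries. By region, the kept endothelial, blood and heart markers all had a lower fitted level in closed tissue, with medians of -2.53, -3.53 and -2.97 on the log2 scale. Among these, 2 of 4 endothelial, 1 of 3 blood and 0 of 2 heart markers had an unadjusted p below 0.05 by edgeR, as 3.32% of all genes did. Summed levels were 26.1 to 81.9 CPM over closed and 52.4 to 291 CPM over open libraries for the endothelial list, and 0.296 to 209 CPM over closed and 1.06 to 1009 CPM over open libraries for the blood list. By dam, with an unadjusted p below 0.05 by edgeR, 3 of 6 kept somite, 2 of 4 mesenchyme, 3 of 4 endothelial and 3 of 3 blood markers stood higher with diabetic dams. Such a p in either direction was seen in 4.55% of all genes. Gata1, a blood marker without counts in normal libraries, passed the filter only through diabetic open libraries 13 and 14. The counts of kept markers are thus partly set by the filter and are no test of dam or region. The 4 heart markers reached 101 CPM in library 13 and at most 5.999 CPM elsewhere, and 2 of them, Nkx2-5 and Tnnt2, were at 0 in all libraries. The 6 surface ectoderm markers, led by Krt18, summed to 85.0 to 222 CPM over closed and 55.1 to 304 CPM over open libraries.

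Genes most like Gli1 over the 8 libraries were found by the mean absolute difference of centred log2 CPM among 5275 genes with a mean of at least 20 CPM. They were Tmem201 (0.09), Eif2ak1 (0.11), Myst1 (0.15), Zfyve19 (0.15) and Ap3d1 (0.16), where the median over all candidates was 0.48. Tmem201 was at 57.3 to 79.8 CPM over closed and 30.3 to 47.6 CPM over open libraries. The members nearest to Gli1 by this measure were Gli2 (0.27), Cdon (0.31) and Gli3 (0.32), and the most distant was Ptch1 (1.80). For Ptch1 the nearest gene, 3200002M19Rik, was at 0.95, followed by Ranbp1 (1.06), Pdzd4 (1.06), Mrps33 (1.07) and Eif3g (1.08). The median over its candidates was 1.76. Ptch1 itself averaged 2.68 CPM, so genes as low as Ptch1 were not among the candidates. These distances therefore cannot show whether other genes share its pattern.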

How the data were processed

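The authors deposited 1 table per library, which lists a raw count of tags for each gene symbol. Per the labels' protocols, 7 ng of total RNA went into each SOLiD SAGE library. Per the submitters' processing notes, mm9 was the genome. What aligned and counted the reads, with which genes and strand setting, is not given in the sources used here.

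Library totals were 5041586 to 16655583 counts. Levels are counts divided by the library total. Tests used edgeR 4.0.16 in R 4.3.3 on 11779 genes kept by edgeR's filterByExpr (minimum count 10, minimum total 15), with TMM scaling (factors 0.976 to 1.04) and Benjamini-Hochberg adjustment over all genes. Region and dam were tested in an additive model, and the 5 contrasts in a model of the 4 groups. Standard errors were taken as the log2 fold change over the root of F. The alternatives were library totals, DESeq2 size factors, DESeq2 1.42.0, limma-voom (limma 3.58.1), no filter and leaving out each library. DESeq2 was run on the same filtered genes.

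On simulated counts edgeR found, between regions, 2.99% of 67 genes altered by 1 on the log2 scale. It found 36.4% of 66 genes altered by 2, and 69.7% of 66 altered by 4. There were 2 false calls in 10908 genes. For dams it called 1.49%, 41.8% and 72.3% of 67, 67 and 65 such genes, with 2 false calls among 10920 genes. The altered genes were drawn at random from kept genes above a minimum mean count. These rates are therefore not those of the Hedgehog genes.

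The members and lists were chosen with earlier results of these data known. All members are named. From each further list the text names up to 4 genes with an unadjusted p below 0.05 by region or dam, otherwise the 2 with the highest mean level. From each marker list it names the most abundant gene, and always Sox2, Pdgfra, Gata4, T and Foxa2. An item that this rule would name is not reported here. Other genes are said to have been picked after their values were seen, except that Gata1, Xist and Ddx3y are also named outside this rule. The 5 genes most like Gli1 and Ptch1 used a prior count of 2. Tags were read with Python 3.11.15 from GENCODE transcripts, taking 27 bases from the last CATG, which is the usual tag of such kits and is not given in the labels. Exact intervals are Clopper-Pearson at 95%, and the limit for a count of 0 is 3 counts in that library. Where an exact interval is named for a count of 0, its limit is higher: 0.22 against 0.180 CPM for Shh in library 13.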

Additional observations from a re-analysis of the deposited data

Results flagged for a closer look

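Gli2 in the closed libraries was set apart by diabetic closed library 15, at 209 CPM. The other 3 closed libraries stood at 374 to 400 CPM, and the gap was 0.863 of the whole range, above the critical value of Dixon's test for 4 samples. It was 1 of 36 such checks over the 9 genes, and chance alone gives about 1 in 20. Gli3 (52.8 CPM) and Cdon (77.2 CPM) were also at their lowest of the 8 libraries in library 15, and Gli1 (335 CPM) at its lowest of the closed ones.

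Cdon lay in opposite directions by dam in the 2 regions, with only 2 libraries on each side. The share of all genes with such opposite orders was not counted. In open tissue the nearest libraries were close, at 111 CPM (diabetic) and 104.8 CPM (normal). Diabetic libraries lay above normal ones in open tissue (130 and 111 against 77.8 and 104.8 CPM) and below them in closed tissue (77.2 and 129 against 165 and 162 CPM). The test of this difference gave -1.08 on the log2 scale (SE 0.48), with an adjusted p of 1.00 by edgeR.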

How the results depend on the processing

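No paired analysis was possible because the labels do not tie open and closed libraries to embryos and no library number occurs in more than 1 group, so that any pairing is unknown. No member was called in any comparison under any alternative that was run (library totals, DESeq2 size factors, DESeq2, limma-voom, no filter, each library left out, and libraries 10 and 12 left out together, a choice made after seeing the data). Of 252 recomputed fold changes of members by region and dam, 23 turned sign and 229 did not. Gli1 by region stayed between 0.66 and 0.78 with each library left out (unadjusted p 0.00198 to 0.00948) and Gli3 by dam between -0.59 and -0.42 (0.0544 to 0.19). With limma-voom, Shh by region was 3.14, Ptch1 1.26, Boc -0.041 and Gas1 0.10. With each library left out, the ranges by region were -0.26 to 1.66 for Shh, -0.98 to 2.22 for Ptch1, 0.87 to 2.21 for Hhip, -0.33 to 0.27 for Boc and -0.42 to 0.40 for Gas1. By dam they were -2.95 to 0.034 for Shh, 0.48 to 3.73 for Ptch1, -1.47 to -0.13 for Hhip, -0.31 to 0.031 for Gli2, -0.33 to 0.10 for Cdon and -0.68 to 0.10 for Gas1. Without libraries 10 and 12, the 2 with Xist, Boc by region was -0.32, Gas1 0.31, Shh by dam 0.12 and Gas1 0.24, while Gli1 by region was 0.81 and Gli3 by dam -0.57. The cause was not tested. The members whose groups do not overlap numbered 1 by region and 1 by dam, and 1 to 2 in each with single libraries left out. Gli2 joined Gli1 without library 15, Boc joined Gli3 without library 15 or 12, and Shh joined Gli3 without library 09. Without libraries 10 and 12 there were 2 by region (Gli1 and Hhip) and 2 by dam (Gli3 and Boc), where 8.34% and 15.5% of all genes did not overlap. Libraries of 1 group differed beyond counting error for Shh, with at most 0.22 CPM in library 13 and 3.21 to 6.23 CPM in library 14 (exact 95% intervals), so depth alone does not set the precision of its differences.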
